A study of Mus musculus with 23 samples.

Results

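In female mouse liver whose hepatocytes lacked STAT5a and STAT5b, regions called as differing from controls were more often gains of methylation than losses. The largest of these differences were mostly losses. The regions described here are all those that the authors listed as different between STAT5ab-deficient (KO) females and control females. They number 1092 of the 3885 regions of 100 bp in the authors' table (28.1%), each of which was listed in at least 1 of 4 comparisons. They were taken by the authors' own call, a difference above 15 percentage points of methylation at a q-value under 0.05. The sizes and directions below are therefore descriptions of the called regions, with no further test.

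The assay was reduced representation bisulfite sequencing (RRBS), run on the liver DNA of individual mice, 6 KO females and 5 control females, among 23 libraries in all. Control females carried a floxed Stat5a-Stat5b locus without deletion, and KO females carried the same floxed locus with a Cre recombinase driven by the albumin promoter, which is active in hepatocytes, so that other liver cells kept STAT5. The comparisons in males used 6 KO males and 6 control males of the same genotypes. All mice were 8 to 12 weeks old. The labels give a mixed C57BL/6 x 129J background for every animal, while the Cre line was FVB/N, and the sources used here do not give the share of FVB/N in each group. Sample titles carry codes of unstated meaning. Among control females 2 carried 1 code and 3 another, and among KO females 1 and 5 carried codes that no control female had, so that code and genotype cannot be told apart. The 6 KO males carried 2 of these codes, of which 1 was shared with the 3 control females and 1 with the single KO female. Among control males 4 carried a code of their own and 2 the code of the 2 control females. No KO male had either code, so code and genotype cannot be told apart in males as well. Whole liver was used, so a change within hepatocytes and a change in the mix of cells cannot be told apart either.

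Methylation of cytosine in CpG pairs is a stable mark of DNA. At promoters and enhancers it usually goes with low activity, and binding of transcription factors can go with its loss. STAT5a and STAT5b carry the growth hormone signal from the receptor and its kinase JAK2 to the genes of hepatocytes. Growth hormone is secreted in pulses in males and more continuously in females, which gives STAT5 a different time course of activity in male and female liver and underlies many sex differences in liver gene expression. RRBS reads the ends of DNA fragments cut by MspI at CCGG, here of 40 to 220 bp, and therefore samples CpG-rich sequence most densely.

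Positions are in mm9, as the table gives them. No annotation of that build was at hand, so regions are named by chromosome and position and not by gene. Values are differences in percent methylation, KO females minus control females, and a positive value is called a gain and a negative value a loss. No methylation level, coverage or value per animal accompanies them, so the depth is unknown and no spread between animals can be given. A value of 0 means that a region was not listed, not that it was unchanged.

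Gains numbered 665 (60.9% of the listed regions; 17.1% of the table) and losses 427 (39.1%; 10.99% of the table). The middle 50% of gains lay between 17.7 and 25.7 points, and 10% of them exceeded 31.8 points. Losses had a longer tail. Their middle 50% lay between -27.8 and -17.8 points, and 10% of them were below -35.5 points. The balance of gains and losses shifted among the larger differences. Of 469 regions with a difference of 15 to 20 points 62.3% were gains. The share was 64.8% of 287 regions at 20 to 25 points and 61.3% of 163 regions at 25 to 30 points. Of 123 regions at 30 to 40 points 55.3% were gains, and of 50 regions over 40 points 38.0% were gains. At 30 points or more gains and losses were equal in number, with 87 of each. At 50 points or more there were 5 gains and 10 losses, and the 4 differences of 60 points or more were all losses. Just inside the threshold, the authors' deposited table gives gains of 15.01, 15.02 and 15.05 points and losses of -15.11, -15.13 and -15.2 points, and none lay closer to 0.

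**Figure D1:**
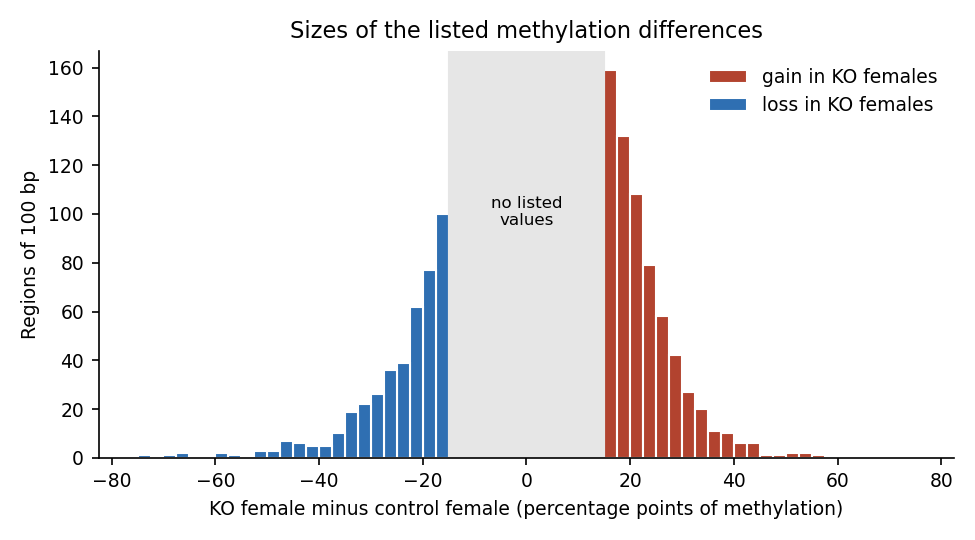
Histogram of the 1092 listed differences in percentage points (x axis, bins of 2.5 points) against the number of regions of 100 bp (y axis), with gains in red and losses in blue. Gains outnumber losses near the threshold of 15 points, while beyond 40 points there are 19 gains and 31 losses.

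The strongest gain, at chromosome 11, 41553601 to 41553701, was listed in all 4 columns of the authors' deposited table, with 55.3 points in females and -21.3 points in KO males against control males. Ranks 4 to 10 began with 52.3 points at chromosome 14, 72926401 to 72926501, in the authors' deposited table. Chromosome 5 followed with 50.1 points at 63260301 to 63260401 and 48.1 points at 7505601 to 7505701, as given by the authors' deposited table. Of these 3 regions, the one at chromosome 5, 63260301 to 63260401, was also listed in males, with 29.3 points in the authors' deposited table. The other 4 gains of this set lay between 47.2 and 43.3 points in the authors' deposited table, on chromosomes 1, 2, 1 and 10. Of the 10 largest gains, 3 were also listed in males, 2 as gains and 1 as a loss.

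Losses of the same rank were larger. Ranks 4 to 6 in the authors' deposited table were -65.6 points at chromosome 11, 113182801 to 113182901, -58.8 points at chromosome 1, 158381501 to 158381601, and -58.4 points at chromosome 1, 155201101 to 155201201. Both chromosome 1 regions were also lower in KO males than in control males, by -15.9 and -32.2 points in the authors' deposited table. Rank 7, at chromosome 6, 141549001 to 141549101, went the other way in males: the authors' deposited table gives -55.8 points in females and 30.5 points in males. Ranks 8 to 10 were -52.2 points on chromosome 6, 118779801 to 118779901, and -51.5 and -51.3 points on chromosome 14, 119005901 to 119006001 and 55300101 to 55300201, by the authors' deposited table. Of the 10 largest losses, 5 were also listed in males, 3 as losses and 2 as gains.

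These regions were spread over all 19 autosomes, and chromosomes differed in how much of their part of the table was listed in females. The share was highest on chromosome 14 (69 of 163 regions, 42.3%) and chromosome 1 (106 of 264, 40.2%), against 28.1% over the whole table. Chromosome 11, which carries Stat5a and Stat5b, had 97 of 263 (36.9%). The share was lowest on chromosome 16 (21 of 125, 16.8%), chromosome 4 (64 of 335, 19.1%) and chromosome 3 (33 of 170, 19.4%). These shares depend on how many regions the other comparisons listed on the same chromosome, and the number of regions covered per chromosome is unknown.

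Gains outnumbered losses on 16 chromosomes. They were most frequent on chromosome 19 (23 of 28, 82.1%), chromosome 8 (37 of 48, 77.1%) and chromosome 10 (42 of 57, 73.7%). Losses were in the majority on chromosome 14 (44 of 69), chromosome 6 (42 of 74) and, by 26 to 24, chromosome 18. Together chromosomes 6, 14 and 18 held 81 gains and 112 losses. Of the losses of 40 points or more, chromosome 14 held 8, chromosome 6 held 6, chromosome 1 held 5, and chromosomes 7 and 11 held 4 each, which makes 27 of 31. These 5 chromosomes were picked for their large losses, and they held 186 of all 427 losses (43.6%). Of the 19 gains of that size, chromosome 11 held 5 and chromosomes 1 and 5 held 3 each.

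**Figure D2:**
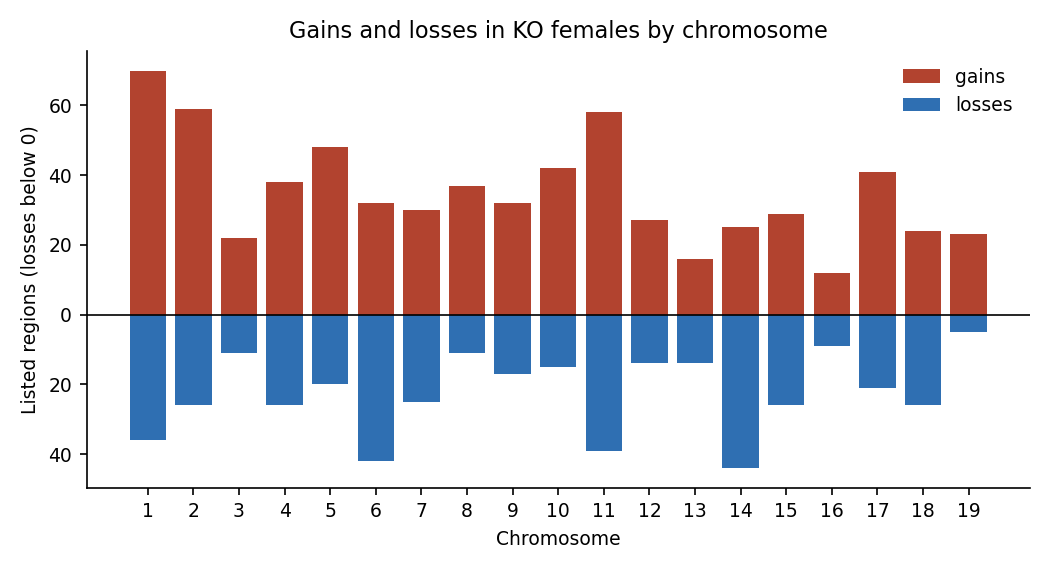
Number of listed regions per chromosome (x axis, autosomes 1 to 19), with gains in red above 0 and losses in blue below 0 (y axis, regions of 100 bp). Losses exceed gains on chromosomes 6, 14 and 18, and chromosome 1 has the most gains (70).

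Most listed regions stood alone. Consecutive listed regions of a chromosome formed 1073 neighbour pairs with a median distance of 778.8 kb between starts. Of the 1092 regions, 205 (18.8%) had another listed region within 10 kb and 182 (16.7%) within 1 kb, while 272 (24.9%) had none within 1 Mb. Chaining neighbours within 10 kb gave 984 units, of which 887 were single regions, 88 held 2 regions, 7 held 3 and 2 held 4. Of the 97 units with more than 1 region, 61 were all gains, 23 were all losses and 13 were mixed.

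Direction was shared at short range. Of 81 abutting pairs, 76 had the same direction (93.8%), 57 as gains and 19 as losses, and their sizes differed by a median of 3.35 points. Over all 81 abutting pairs Pearson's r between the differences was 0.81, given as a description, since abutting regions can share reads and animals. The share fell to 11 of 14 pairs up to 1 kb apart and 8 of 13 pairs at 1 to 10 kb. It was 59.3% at 10 to 100 kb (86 pairs), 58.8% at 100 kb to 1 Mb (388 pairs) and 56.4% over 1 Mb (491 pairs). Independent directions with the overall split of gains and losses would give 52.4%.

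**Figure D3:**
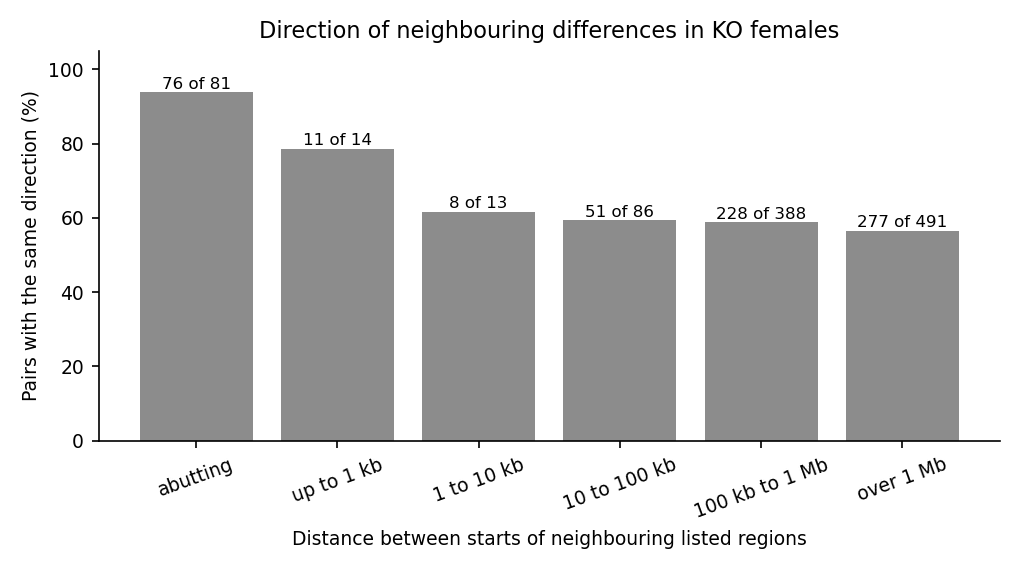
Share of neighbouring listed regions with the same direction in KO females (y axis, percent of pairs) by the distance between their starts (x axis, 6 classes), with the counts above each bar. The share is 93.8% for abutting pairs and lies between 56.4% and 61.5% beyond 1 kb.

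The tightest groups of gains were short. On chromosome 1, 74144801 to 74145201, 4 abutting regions gained 15.6, 21.6, 16.0 and 15.4 points in the authors' deposited table, and none of them was listed in males. Also on chromosome 1, the 4 regions between 190728101 and 190730601 gained 15.6, 22.2, 38.9 and 28.3 points in the authors' deposited table. The last 2 of these were listed in males too, at 35.2 and 21.2 points in the authors' deposited table. The strongest group of 3 lay on chromosome 5, 123220801 to 123221101, with gains of 41.6, 39.6 and 33.1 points in the authors' deposited table. Its first 2 regions gained 34.3 and 38.0 points in males by the authors' deposited table, and the third was not listed there. Among the other groups of 3 regions, chromosome 10, 68805201 to 68805501, gained a mean of 28.7 points, and chromosome 2, 25321201 to 25321501, and chromosome 4, 6199601 to 6199901, gained a mean of 19.6 points each. The group on chromosome 5, 149560101 to 149560401, gained a mean of 19.2 points. Every region of the chromosome 10 group was also a gain in males. A group of 3 losses lay on chromosome 17, 46765801 to 46766201, with a mean of -17.5 points.

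Abutting regions with opposite directions numbered 5 pairs, and 3 of them lay close together on distal chromosome 11. There the authors' deposited table gives -26.6 and 29.7 points at 115490001 to 115490201, -17.0 and 19.4 points at 116377001 to 116377201, and 29.3 and -27.2 points at 117067201 to 117067401. The other 2 pairs were on chromosome 6, 90347201 to 90347401 (19.5 and -19.7 points in the authors' deposited table), and chromosome 15, 14071701 to 14071901 (-22.0 and 17.2 points). A group of 3 regions with mixed directions lay on chromosome 6, 136868301 to 136872401, where 2 abutting gains of 19.2 and 17.6 points were followed within 10 kb by a loss of -42.8 points in the authors' deposited table.

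Distal chromosome 11 also had the densest stretch. The window of 1 Mb with the most listed regions, chromosome 11, 115490001 to 116377201, held 8 among 11 regions of the table. Of the 8, 3 were gains and 5 losses, which included the largest loss of all. Of these 8 regions 7 were listed between control males and control females, against 38.4% of the table, a comparison that shares the 5 control females. Between KO males and control males 1 of the 8 was listed, against 55.4% of the table. On chromosome 14, 34806401 to 35645001, 7 among 11 regions of the table were listed, 6 of them losses down to -49.6 points in the authors' deposited table. In that window 3 regions were also listed in males, all as losses, with -24.3, -15.3 and -26.5 points in the authors' deposited table. On chromosome 17, 45807001 to 46766201, there were 2 gains and 5 losses among 12 regions of the table. In bins of 10 Mb, 226 of the 253 bins that hold any region of the table had a region listed in females, with a median of 4. The bin from 110 to 120 Mb on chromosome 11 held the most, 26 of 57 regions (10 gains and 16 losses). On chromosome 14 all 9 regions of the table between 110 and 120 Mb were listed in females, 8 of them as losses.

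Consecutive listed regions formed 441 runs of the same direction, of which 213 held 1 region. Whether the longest runs exceed what the overall split of gains and losses would give was not tested. The longest were 3 runs of 12 gains, on chromosome 17 over 4.79 Mb (24402301 to 29194601), chromosome 8 over 8.49 Mb (121949601 to 130443101) and chromosome 11 over 14.7 Mb (71858601 to 86511701). Males differed between these runs. In the chromosome 17 run 7 regions were listed in males and all 7 were gains, while in the chromosome 8 run males had 5 gains and 4 losses, and in the chromosome 11 run 3 gains and 5 losses. A run of 11 gains on chromosome 2, 167921701 to 174664401, had a median of 25.7 points, and all 7 of its regions listed in males were gains. Over whole chromosomes, the direction was shared at 14 of 14 regions listed in both sexes on chromosome 17 and 34 of 35 on chromosome 2. It was shared at 14 of 20 on chromosome 8 and 24 of 37 on chromosome 11. The runs on chromosomes 17 and 2 thus did not stand apart from their chromosomes in this.

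The longest runs of losses held 9 regions each. On chromosome 7, 119466101 to 125578101, the median loss was -33.1 points, and on chromosome 14, 116864701 to 122060001, it was -26.2 points. A run of 8 losses on chromosome 18, 77496601 to 89782101, had a median of -24.7 points in females, and all 6 of its regions listed in males were gains. Over the whole of chromosome 18, 13 of the 17 regions listed in both sexes had opposite directions. A run of 8 losses on chromosome 11, 109281401 to 115490101, had a median of -28.4 points, and 1 of its regions was listed in males, as a loss. None of the 7 regions in a run of losses on chromosome 6, 115756001 to 119401901, was listed in males.

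The other 3 columns divided the regions into 8 classes. No other comparison listed 348 of them (31.9%), 554 were listed in 1 other comparison (50.7%), 119 in 2 and 71 in all 3. Size went up with the number of listings. The median size was 18.8 points for regions listed in females alone and 22.1 points with 1 other listing. It was 23.5 points with 2 other listings and 24.6 points with 3. Both comparisons between the sexes share animals with the female KO comparison, so the rise cannot be told apart from the effect of shared animals. None of the 348 regions listed alone, of which 217 were under 20 points, can be called particular to females. A difference of the same direction in males may have missed the authors' thresholds.

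**Figure D4:**
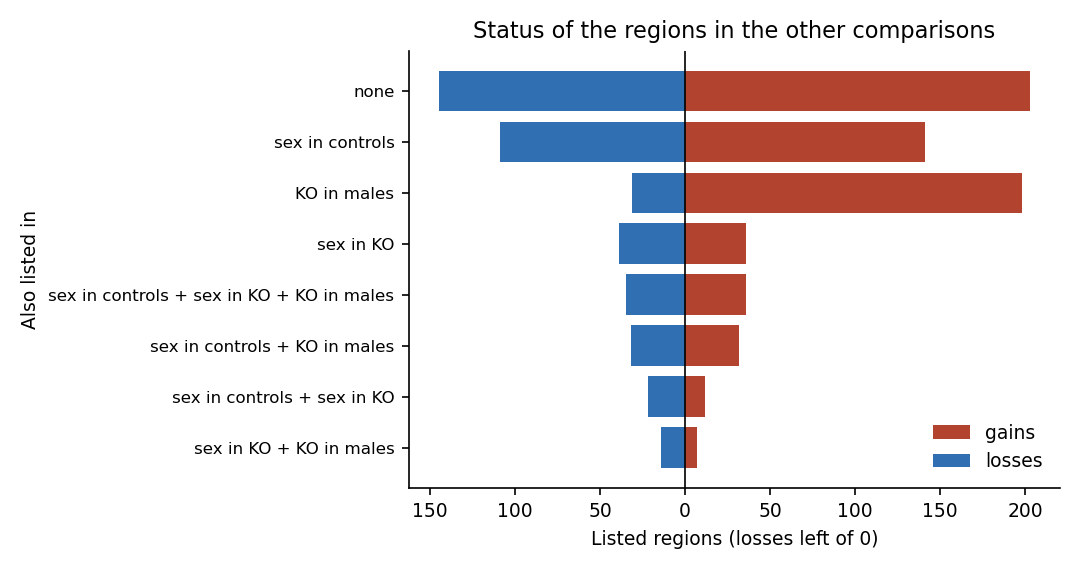
Number of regions (x axis, gains in red to the right of 0 and losses in blue to the left) in each of 8 classes by the other comparisons that listed them (y axis; sex means males against females, KO means KO against control). Regions that share a listing only with the male KO comparison hold 198 gains and 31 losses, while the class with no other listing holds 203 gains and 145 losses.

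The male KO comparison shares no library with the female one, though title code and genotype cannot be told apart in either. It listed 385 of the 1092 regions (35.3%), against 55.4% of the whole table. Every region outside the female list had to be listed elsewhere to enter the table, which raises the latter share by construction. Gains were shared more often than losses: 273 of 665 female gains were listed in males (41.1%) and 112 of 427 female losses (26.2%). Direction also differed. Of the 273 female gains, 238 were gains in males (87.2%), while 68.1% of all regions listed in males, or 37.8% of the table, were male gains. Of the 112 female losses, 69 were losses in males (61.6%), while 31.9% of all regions listed in males, or 17.7% of the table, were male losses.

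Where both sexes gained, both values had to exceed 15 points, which draws the sizes together by construction. Whether they were closer than that alone would give was not tested. The median gain was 21.3 points in females and 22.6 points in males, the sizes lay within 5 points of each other at 125 of the 238 regions, and males had the larger gain at 133. Where both lost, females had the larger loss at 47 of 69 regions, with a median of -25.9 points in females and -19.7 points in males. By the authors' deposited table the region ranked highest by the smaller of both sizes was a loss at chromosome 1, 174464001 to 174464101, which was also listed in both sex comparisons. It was followed by gains on chromosomes 11, 5 and 3, and then by a gain of 38.9 points in females and 35.2 points in males at chromosome 1, 190730401 to 190730501, in the authors' deposited table. By size in females, the share listed in males was 29.6% at 15 to 20 points and 38.3% at 20 to 25 points. Above that it did not rise steadily, with 42.3% at 25 to 30 points, 37.4% at 30 to 40 points and 42.0% over 40 points. The share with the same direction was 82.0% at 15 to 20 points, 79.1% at 20 to 25 and 85.5% at 25 to 30. It was 73.9% at 30 to 40 points and 61.9% over 40 points (13 of 21 regions). The mix of gains and losses changed along these classes. Among female gains the direction was shared at 97 of 110 regions at 15 to 20 points and at 3 of 6 over 40 points. Among female losses it was shared at 17 of 29 and at 10 of 15.

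**Figure D5:**
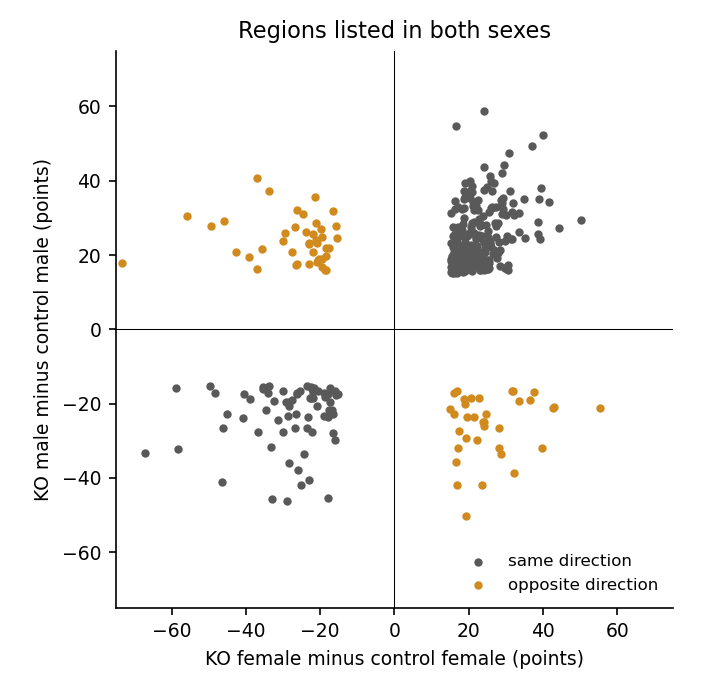
Difference in females (x axis) and in males (y axis), both in percentage points, at the 385 regions listed in both KO comparisons, with the same direction in grey and opposite directions in orange. The upper right quadrant holds 238 gains in both sexes, and the empty bands around 0 are set by the threshold of 15 points.

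The sexes went in opposite directions at 78 regions, 35 with a gain in females and 43 with a loss in females. Control males against control females listed 32 of the 35 and 40 of the 43, and KO males against KO females 29 and 30. Where both sexes gained, these comparisons listed 36 and 14 of 238 regions, and where both lost, 27 and 19 of 69. The sex comparisons use the same animals as both KO comparisons, so these listings are not independent of the directions. Chromosomes 4, 6, 11 and 18, picked because they held the most regions of opposite direction, had 48 of them beside 56 with the same direction (53.8% the same). The other 15 chromosomes had 30 opposite and 251 of the same direction (89.3%), and chromosomes 7, 12 and 17 had none of opposite direction. On chromosome 18 there were 13 regions of opposite and 4 of the same direction. Ranked by the smaller of both sizes, chromosome 9, 91098201 to 91098301, came after 1 region each on chromosomes 18, 6 and 8, with 39.8 points in females and -31.9 points in males in the authors' deposited table. Whether the sexes differ at a given region was not tested, as no value per animal was at hand.

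Both comparisons between the sexes share animals with the female KO comparison, so directions are not scored between them and values are set side by side. Control males against control females shares the 5 control females and listed 419 of the regions (38.4%, equal to 38.4% of the whole table). These were 221 of 665 gains (33.2%) and 198 of 427 losses (46.4%). KO males against KO females shares the 6 KO females and listed 201 (18.4%, against 17.99% of the table), made up of 91 gains (13.7%) and 110 losses (25.8%). Both shares of the table are raised by construction, as for the male KO comparison, so near-equal shares do not show a lack of association. Listing in the control sex comparison was more frequent among larger differences, with 26.4% of the regions at 15 to 20 points and 70.0% of those over 40 points. Both differences use the same 5 control females, so this rise cannot be told apart from the effect of shared animals.

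Among the 10 largest gains and 10 largest losses, the control sex comparison listed 9 of the 10 gains and all 10 losses. The shared control females enter both values here too. At chromosome 14, 72926401 to 72926501, the authors' deposited table has 52.3 points for KO females against control females and 60.04 points for control males against control females. For chromosome 6, 121969701 to 121969801, the corresponding values in the authors' deposited table are -68.9 and -67.9 points, and for chromosome 11, 113182801 to 113182901, they are -65.6 and -61.1 points. At these 3 regions neither comparison of KO males was listed. Other values lay far apart, with 54.4 and 21.1 points at chromosome 1, 154460401 to 154460501, and -67.2 and -36.7 points at chromosome 1, 167789201 to 167789301, in the authors' deposited table. Over the 19 regions listed in both, the values differed by 1.08 to 33.3 points, by at most 10 points at 9 regions and by over 20 points at 7. The region at chromosome 5, 63260301 to 63260401, was the only one of the 20 not listed between control males and control females.

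The 348 regions listed in females alone comprised 203 gains and 145 losses, with medians of 18.9 and -18.7 points. Only 30 of the gains and 26 of the losses reached 25 points. The largest gains of this class in the authors' deposited table were 35.8 points at chromosome 5, 58775701 to 58775801, 34.5 points at chromosome 2, 173104601 to 173104701, and 34.1 points at chromosome 1, 150100101 to 150100201. Ranks 4 and 5 were 33.4 points on chromosome 14, 48786101 to 48786201, and the third region of the chromosome 5 group described above, with 33.1 points in the authors' deposited table. Losses reached -46.6 points at chromosome 6, 143998601 to 143998701, -43.7 points at chromosome 1, 38886901 to 38887001, and -41.9 points at chromosome 14, 105853001 to 105853101, by the authors' deposited table. The next were -36.4 points at chromosome 15, 42428701 to 42428801, and -34.1 points at chromosome 6, 16954701 to 16954801, in the authors' deposited table.

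The 4 columns are differences between 4 group levels, so any 3 of them give the fourth if each group has a single level. Of the 71 regions listed in all 4, the columns closed within 1 point at 46, at 23 of 36 gains and 23 of 35 losses. They were off by over 5 points at 18, and by 32.97 points at most. Values derived in this way carry the same error. For the 119 regions listed in females and in exactly 2 other comparisons, the column in which they were not listed can be derived. The derived difference was within 15 points at 80 regions and over 15 points at 39, of which 12 were over 25 points. For chromosome 1, 163254901 to 163255001, the authors' deposited table has 16.9 points for KO females, 17.3 points for KO males and 59.6 points for the control sex difference. The derived difference between KO males and KO females is then 60.1 points, though the region was not listed there. This was the largest derived value, beside a median size of 11.53 points over the 64 regions not listed in that column. A missing listing is not a measurement of a small difference, and a derived value can itself be in error.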

How the data were processed

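Liver DNA of individual mice was digested with MspI and sequenced after bisulfite treatment, per the labels' protocols. The submitters' processing notes name mm9 as the build and list Bismark, methylKit and Trim Galore 0.4.3, with no role for each. The sources used here do not give the coverage minimum, the model or the handling of replicates. Per the file headers and legend, the deposited values are differences in percent methylation for regions of 100 bp, above 15 points at a q-value under 0.05, and 0 where not listed. The table writes WT, taken to mean the floxed controls. Depth is unknown, so no interval is given.

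From these values, counts, medians, shares, distances between starts, chains within 10 kb, windows of 1 Mb and bins of 10 Mb were computed with pandas 2.3.3 and numpy 2.4.6, and the functions were tested on simulated data. No p-value was computed, since regions are not replicates. Named regions are the 10 largest gains and losses, the groups with the most regions (9, since groups of 3 tied for the last of 5 places), the 3 densest windows, the 5 largest of each direction listed in females alone, and the 5 largest by the smaller of both sizes with the same and with opposite directions in males. Other named regions, the runs and the abutting pairs were chosen after their values were seen. The members and lists were chosen with earlier results of these data known. Gene lists could not be applied to mm9 positions.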

Additional observations from a re-analysis of the deposited data

How the results depend on the processing

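No paired analysis was possible because the deposited table holds no values per animal, and for the same reason no animal could be left out. With a stricter minimum of 20 points, the share of regions with a neighbour within 10 kb was 11.7%, that also listed in males 39.4%, that listed in females alone 21.2%, and the medians were 24.97 points for gains and -26.5 points for losses. At 25 points these were 11.01%, 40.5%, 16.7%, 29.6 points and -31.4 points, and the share of gains was 55.7%. The medians move with the minimum by construction. With neighbours taken within 100 kb instead of 10 kb, 31.7% of regions had a neighbour and 75.3% of pairs shared a direction, against 88.0% within 10 kb. The other 26 of 39 recomputed values, which include all 10 without chromosome 11 and all 5 with neighbours merged, moved less than a working tolerance: the exact 95% interval over regions, or 1.5 times for the count of chromosomes with more gains. Since regions are not independent replicates, this tolerance is not an error between animals and shows no stability. It was wide for the closure within 1 point, which was 64.8% of 71 regions and 57.1% of 35 at the minimum of 25 points. The 3 results on listing status, closure and chromosomes were added after seeing the data. Depth behind each difference is unknown, and the 5 control females, fewer than in other groups, enter every difference between KO females and control females.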
